A study of Homo sapiens with 192 samples.

Results

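The expression of 10 coding genes of mitophagy and autophagy was followed in 4 human colorectal cancer (CRC) cell lines grown in 2D and in 3D. They were the mitophagy receptors BNIP3, BNIP3L and FUNDC1, the mitophagy kinase PINK1, the ubiquitin-binding receptors SQSTM1 and OPTN, the ATG8 family members MAP1LC3B and GABARAPL1, the initiation kinase ULK1 and the lipid-binding effector WIPI1. The 10 genes were chosen by name, with earlier results of these data known. They were found by their Ensembl identifiers among the 58243 genes of the count tables. Each one had a single identifier, and all 10 passed the filter on low counts that left 19387 genes for testing. BNIP3 passed that filter only through HCT116 and LS174T, since it was at or under the detection floor in HT29 and LS513.

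HT29 and LS513 are microsatellite stable CRC lines, whereas HCT116 and LS174T are microsatellite instable. HT29, LS513 and LS174T were kept in DMEM and HCT116 in McCoy medium, and the labels name no transgene, deletion or drug in any of the 8 groups. Each line grown as a 2D layer or as a 3D culture was represented by 3 libraries of poly(A) selected RNA, 24 libraries in all. Each is a single established line, and the labels do not say whether the 3 libraries of a group came from separate cultures, so p-values measure the spread between these libraries, which may be technical.

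Autophagy encloses cytoplasm in a double membrane, the autophagosome, and delivers it to the lysosome for breakdown. Mitophagy is its selective form for mitochondria. Receptors on the outer mitochondrial membrane, or adaptors that bind ubiquitin placed on the mitochondria downstream of PINK1, tie the organelle to ATG8 proteins on the growing membrane. BNIP3 and BNIP3L are textbook targets of the hypoxia-inducible factors (HIF), and mitophagy is well known in cells short of oxygen.

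Library totals after summing the technical replicates were between 18723942 and 34277421 counts, with a median of 30777613. The detection floor of 3 counts in a library was between 0.0875 and 0.160 CPM (counts relative to the total of the library) before TMM factors were applied. Reads were not tagged by molecule, so the floor and the intervals given for counts cover counting error only. Of 12 markers of intestinal epithelium, 12 were above the floor in every library of HT29, LS513 and LS174T, while HCT116 had 10 in 2D and 11 in 3D. Of 12 markers of fibroblasts, endothelium and leukocytes, 5 had at most 3 counts in every library, CD3E and COL1A2 were at 0 throughout, CD68, COL1A1 and CD14 reached 2584, 655 and 501 counts in a library, and the sum of the list lay between 2.65 and 92.7 CPM.

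Promoter sequence is shown for the receptor with the largest difference between lines and for a receptor that passed the test in no line. It was taken from RefSeq (GRCh38.p14), which held the 250 bases before a start site for 8 of the 10 genes in 11 windows. BNIP3L and PINK1 had no entry. The letters below are the bases that lie outside annotated exons, on the minus strand at chr10:131982014-131982173 for BNIP3 and on the minus strand at chrX:44543002-44543109 for FUNDC1. Capitals mark CACGTG, a palindrome that holds ACGTG, a form of the core of the HIF response element, on both strands.
BNIP3: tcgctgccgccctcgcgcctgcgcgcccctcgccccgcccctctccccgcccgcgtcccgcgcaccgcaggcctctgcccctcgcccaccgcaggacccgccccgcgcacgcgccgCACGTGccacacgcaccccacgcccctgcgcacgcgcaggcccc
FUNDC1: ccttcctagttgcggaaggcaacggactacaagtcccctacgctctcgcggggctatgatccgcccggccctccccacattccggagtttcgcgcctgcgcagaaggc

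ACGTG was the only form of the HIF core searched, on both strands in the full 250 bases. It occurred in 18.5% of 35116 promoter windows, and CACGTG in 6.3%. Of the 8 genes, BNIP3 alone had a match, and its CACGTG ran from base -134 to base -129 counted from the start. The BNIP3 window also held 41 CpG dinucleotides, and 98.3% of all windows held fewer. FUNDC1 held 17, against a median of 11 over all windows. The matches are descriptions of the letters and were not tested against the counts.

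The first question was whether growth in 3D altered the expression levels of the 10 genes within each line. Most of them rose and none fell, in a set chosen with earlier results of these data known. Of the genes above the floor, HT29 had 7 of 9 that rose, LS513 8 of 9, HCT116 7 of 10 and LS174T 5 of 10. Over all tested genes, 21.1% rose and 19.6% fell in HT29, 13.7% rose and 9.9% fell in LS513, 16.8% rose and 12.3% fell in HCT116, and 13.1% rose and 9.15% fell in LS174T. A gene was called when the adjusted p of edgeR's quasi-likelihood test was under 0.05, with Benjamini-Hochberg adjustment over the 19387 genes. The median log2 fold change of 3D over 2D among the members above the floor was 0.81, 1.02, 1.02 and 0.42 in HT29, LS513, HCT116 and LS174T, and the median over all tested genes was between 0.00 and 0.02.

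Of 38 gene by line comparisons above the floor, 27 were called higher and 11 were not called, 10 of which had a positive log2 fold change. In none of the 27 did the 3D libraries overlap the 2D libraries. All 3 libraries in 3D lay above all 3 in 2D for 7 members in HT29 and 7 in LS174T, and for 8 members in both LS513 and HCT116. That pattern held for 27.3%, 23.0%, 22.8% and 20.9% of all tested genes in HT29, LS513, HCT116 and LS174T. BNIP3L, MAP1LC3B and GABARAPL1 were called higher in all 4 lines, as were 3.14% of all tested genes. Averaged over the lines, 8 of the 9 members above the floor in every line were called higher, with a background of 26.6%. These are bulk RNA values, in which a change in the share of cells that express a gene and a change in its RNA per cell cannot be told apart.

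**Figure D1:**
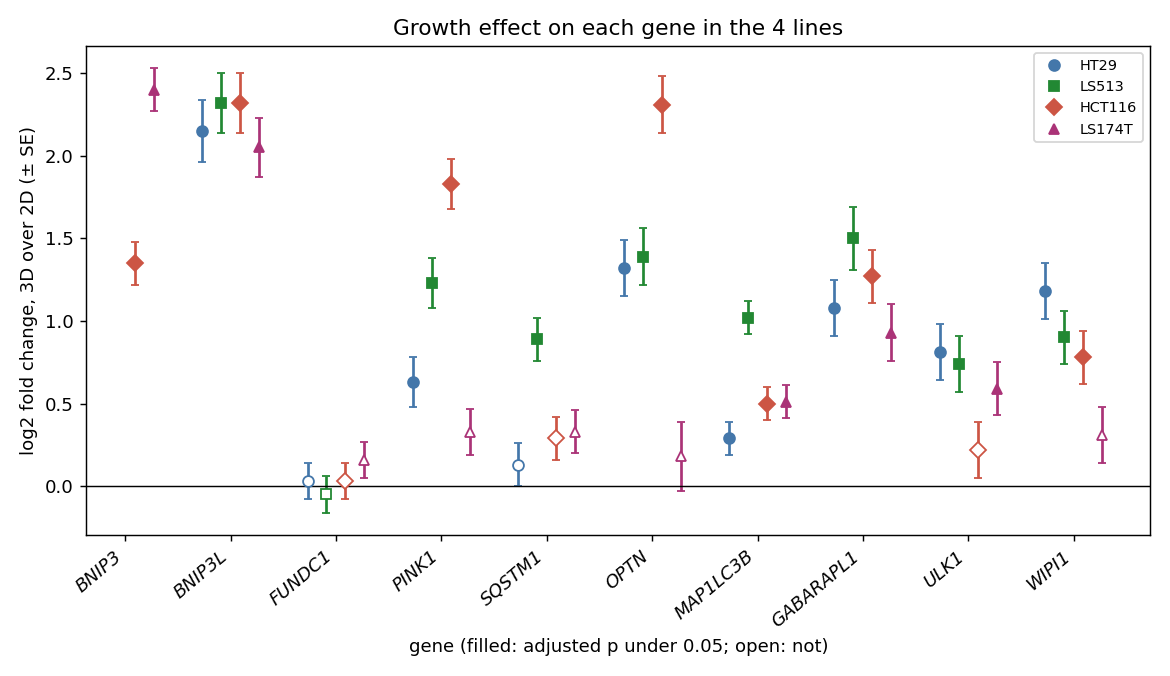
Growth effect on each gene as the log2 fold change of 3D over 2D (vertical axis, ± SE of the edgeR fit) in HT29, LS513, HCT116 and LS174T, with 3 libraries per group. Filled symbols passed an adjusted p of 0.05 and open symbols did not. BNIP3L sits between 2.05 and 2.32 in every line, FUNDC1 sits near 0 in every line, and OPTN spreads from 0.18 in LS174T to 2.31 in HCT116. BNIP3 has no value in HT29 and LS513, where it was at or under the floor.

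BNIP3 (ENSG00000176171, chr10:131966455-131982013, minus strand) encodes a receptor of the outer mitochondrial membrane that binds ATG8 proteins directly. It was close to absent in HT29 and LS513 and clearly expressed in HCT116 and LS174T. The HT29 libraries held 0, 2 and 0 counts in 2D and 1, 2 and 1 counts in 3D. Those of LS513 held 0, 0 and 1 counts in 2D and 1, 0 and 0 counts in 3D. No fold was formed for these lines, because every library was at or under the floor in both growth conditions.

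In HCT116, BNIP3 had 774, 726 and 811 counts in 2D and 1729, 1881 and 1792 counts in 3D. LS174T had 872, 925 and 818 counts in 2D and 4153, 3973 and 4301 counts in 3D. The 3D libraries were thus above all 2D libraries in both lines. HCT116 had 23.4 ± 2.57 CPM in 2D and 59.6 ± 2.00 CPM in 3D (mean ± SD, n = 3), a log2 fold change of 1.35 (SE 0.13, adjusted p = 5.3e-08). The rise in LS174T was larger, with 25.5 ± 1.14 CPM in 2D and 134.8 ± 9.07 CPM in 3D, a log2 fold change of 2.40 (SE 0.13, adjusted p = 2.5e-11).

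The growth effect on BNIP3 differed between the 2 lines by 1.05 on the log2 scale (SE 0.18), with an adjusted p of 0.00053. A difference of this kind was called for 4.75% of all tested genes. The 2D levels of HCT116 and LS174T did not differ beyond their spread (adjusted p = 0.39), whereas in 3D LS174T was 2.26-fold higher (adjusted p = 1.3e-08).

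Against HT29, the summed BNIP3 counts in 2D scaled to library size were 892-fold higher in HCT116, with an exact 95% interval from 246.7 to 7370. The same ratio for LS174T was 977, with an interval from 270.2 to 8072. Both rest on 2 counts in HT29 that came from replicate 2 alone, and without it HT29 held 0 counts in 2D. In 3D the ratios to HT29 were 1336 for HCT116 (521.5 to 4905) and 3008 for LS174T (1174 to 11040). LS513 held 1 count in each growth condition, so its ratios were wider still. They were 2233 (400.4 to 88240) for HCT116 and 2446 (438.6 to 96650) for LS174T in 2D, and 5092 (913.5 to 201200) and 11460 (2057 to 452800) in 3D. The upper 95% Poisson bound of the pooled level was 0.0945 CPM in HT29 in 2D and 0.114 CPM in 3D, and 0.0582 and 0.0652 CPM in LS513. The pseudogene copies of BNIP3 numbered 39 in the tables and 11 of them had counts. Their summed counts were 3 to 9 per library in HT29, 22 to 32 in LS513, 8 to 24 in HCT116 and 23 to 62 in LS174T. Reads that aligned more than once had been removed, so reads shared between BNIP3 and its copies are missing from these counts.

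**Figure D2:**
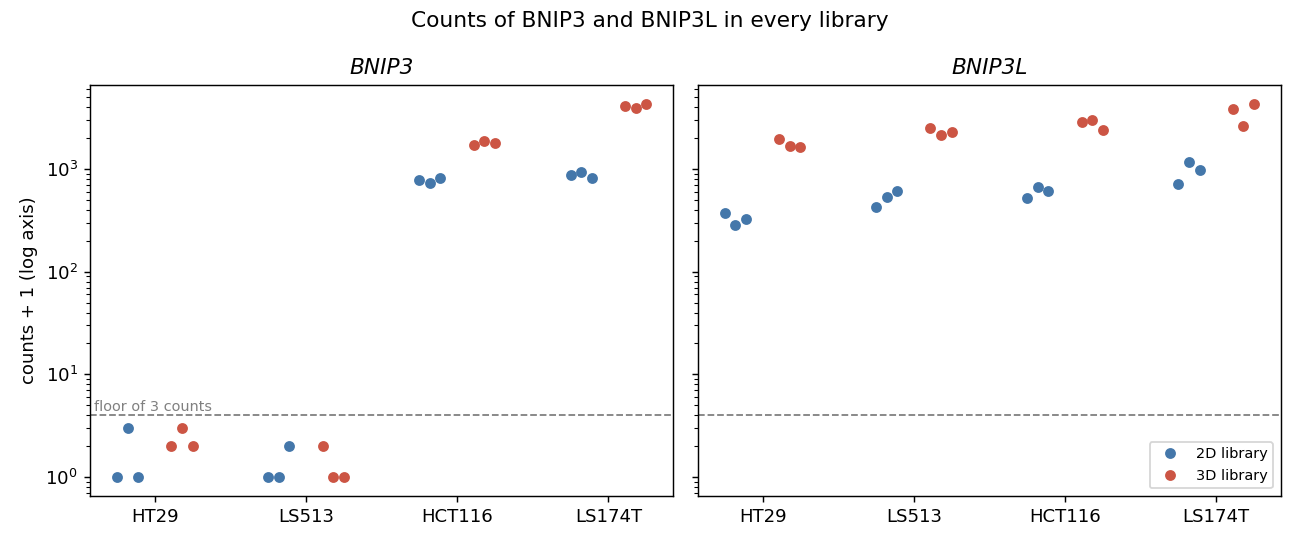
Counts of BNIP3 and BNIP3L in each of the 24 libraries, plotted as counts + 1 on a log axis, by cell line and growth condition. The dashed line marks the floor of 3 counts. BNIP3 lies at 0 to 2 counts in all libraries of HT29 and LS513 and at 726 to 4301 counts in HCT116 and LS174T, while BNIP3L lies at 282 to 4342 counts in all 4 lines.

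BNIP3L (ENSG00000104765, chr8:26382898-26505636), also known as NIX, is the paralog of BNIP3 and clears mitochondria from maturing red cells. It rose in all 4 lines, by 4.13- to 5.01-fold. In HT29 it stood at 12.8, 9.70 and 17.7 CPM in 2D and at 58.8, 58.0 and 59.5 CPM in 3D. In LS513 the values were 13.6, 16.2 and 19.3 CPM in 2D and 88.8, 75.7 and 80.3 CPM in 3D. No 3D library came near the 2D range in either line, and the same was true of HCT116 and LS174T. In HCT116 the 2D libraries held 15.9, 19.4 and 19.8 CPM and the 3D libraries 96.2, 99.2 and 80.2 CPM. In LS174T the 2D libraries held 21.4, 33.5 and 29.2 CPM and the 3D libraries 117.3, 96.3 and 133.3 CPM.

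The log2 fold change of BNIP3L was 2.15 (SE 0.19, adjusted p = 1.1e-08) in HT29 and 2.05 (SE 0.18, adjusted p = 3.1e-08) in LS174T. It was 2.32 in LS513 (SE 0.18, adjusted p = 5.7e-09) and also in HCT116 (SE 0.18, adjusted p = 3.4e-09). Averaged over the lines it was 2.21 (SE 0.09, adjusted p = 3.3e-14), a 4.62-fold rise. A test of equal growth effects in the 4 lines gave an adjusted p of 0.77, and the 6 pairwise differences between lines were at most 0.28 on the log2 scale (SE 0.25). BNIP3L thus rose in the lines that lacked BNIP3 counts as well as in the others. LS174T had the highest level in both growth conditions, 28.0 ± 6.11 CPM in 2D and 115.6 ± 18.6 CPM in 3D. In 3D it did not differ from HCT116, its neighbour in the order (adjusted p = 0.091), while HT29 was lower than LS513 (adjusted p = 0.021).

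FUNDC1 (ENSG00000069509, chrX:44523639-44543001, minus strand) is another receptor of the outer mitochondrial membrane, and its activity is set by phosphorylation. It did not pass the test in any line. Its mean in 2D and 3D was 14.4 ± 0.502 and 14.6 ± 1.60 CPM in HT29, and 7.15 ± 0.140 and 6.89 ± 0.704 CPM in LS513. HCT116 had 18.8 ± 2.01 and 19.2 ± 1.46 CPM, and LS174T had 10.8 ± 0.40 and 12.0 ± 0.245 CPM. The log2 fold changes were 0.03, -0.05, 0.03 and 0.16 in that order, each with an SE of 0.11, and adjusted p was between 0.31 and 0.89. The mean over the lines was 0.04 (SE 0.05, adjusted p = 0.60). The 3D and 2D libraries overlapped in 3 lines, and in LS174T the 3D libraries lay above those in 2D.

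The lines differed in their level of FUNDC1 in both growth conditions. The order was HCT116, HT29, LS174T and LS513 in both 2D and 3D, and each line differed from its neighbour in the order in both (adjusted p between 1.3e-06 and 0.025). The highest line was 2.63-fold above the lowest in 2D and 2.79-fold in 3D. Line differences of this kind are common. For the pairs HT29 and LS513, HT29 and HCT116, HT29 and LS174T, LS513 and HCT116, LS513 and LS174T, and HCT116 and LS174T, the level in 2D differed for 60.6%, 68.8%, 64.6%, 68.3%, 57.6% and 68.3% of all tested genes. The shares in 3D were 61.9%, 68.5%, 65.5%, 68.5%, 60.9% and 67.2% in the same order.

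PINK1 (ENSG00000158828, chr1:20633455-20651511) encodes the kinase that accumulates on damaged mitochondria and phosphorylates ubiquitin there. It rose in HT29, LS513 and HCT116. In HCT116 the 2D libraries held 20.0, 19.4 and 24.8 CPM and the 3D libraries 78.8, 82.8 and 66.5 CPM. In LS513 the values were 15.4, 13.8 and 18.8 CPM in 2D and 37.9, 46.1 and 28.6 CPM in 3D. These lines had the lowest 2D levels of PINK1 and its largest log2 fold changes. HT29 went from 42.3, 43.7 and 33.3 CPM to 61.8, 57.4 and 65.4 CPM. LS174T went from 44.2, 49.1 and 48.0 CPM to 58.8, 62.5 and 56.2 CPM.

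The log2 fold change of PINK1 was 1.83 (SE 0.15, adjusted p = 6.9e-09) in HCT116, 1.23 (SE 0.15, adjusted p = 2.4e-06) in LS513 and 0.63 (SE 0.15, adjusted p = 0.0015) in HT29. In LS174T it was 0.33 (SE 0.14) with an adjusted p of 0.11, although its 3D libraries lay above those in 2D. The growth effects differed between the lines (adjusted p = 4.9e-05), as they did for 17.1% of all tested genes. A difference in growth effect was called for 12.1% of genes between HT29 and LS513, 7.76% between HT29 and HCT116, 6.65% between HT29 and LS174T, 4.34% between LS513 and HCT116, and 3.62% between LS513 and LS174T. For PINK1, HCT116 exceeded HT29 by 1.20 (adjusted p = 0.00037) and LS174T by 1.5 (adjusted p = 4.8e-05), and LS513 exceeded LS174T by 0.91 (adjusted p = 0.012) on the log2 scale. In 2D the highest line was 2.95-fold above the lowest, and in 3D 2.03-fold.

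On the opposite strand, exons of the antisense gene PINK1-AS cover 39.4% of the exonic bases of PINK1. PINK1-AS had between 665 and 2408 counts per library, and its log2 fold change of 3D over 2D was 0.13, 0.15, 0.12 and -0.05 in HT29, LS513, HCT116 and LS174T, with adjusted p between 0.19 and 0.68. The library kit kept the strand, but the strand setting of the counting step is not given in the sources used here, so the reads of the 2 genes cannot be told apart with certainty.

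SQSTM1 (ENSG00000161011, chr5:179806398-179838078), whose protein is p62, links ubiquitin-tagged cargo to ATG8 proteins and is itself degraded by autophagy. In LS513 it stood at 307.6, 313.3 and 314.7 CPM in 2D and at 579, 677.6 and 482.2 CPM in 3D, and the lowest 3D library was well above the highest in 2D. The log2 fold change there was 0.89 (SE 0.13, adjusted p = 2.7e-05). The mean was 426 ± 17.6 CPM in 2D and 465.2 ± 29.6 CPM in 3D in HT29 (0.13, adjusted p = 0.47), 383.4 ± 50.5 and 469.7 ± 27.7 CPM in HCT116 (0.29, adjusted p = 0.095), and 270.8 ± 16.3 and 340.7 ± 82.0 CPM in LS174T (0.33, adjusted p = 0.071). These lines did not pass the test. The spread in LS174T came from a 3D library at 434.7 CPM beside others at 304.1 and 283.3 CPM. Without that library, replicate 2 of 3D, the LS174T value was 0.13 (adjusted p = 0.52), and without replicate 3 of 3D it was 0.45 (adjusted p = 0.014). Without replicate 3 of 2D the HCT116 value was 0.38 (adjusted p = 0.047).

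The mean growth effect on SQSTM1 over the lines was 0.41 (SE 0.07, adjusted p = 1.4e-05). The effects differed between lines (adjusted p = 0.020), and of the pairwise differences that between LS513 and HT29 was called, 0.77 on the log2 scale (adjusted p = 0.0068). The interaction did not pass the test without LS513 replicate 1 of 2D (adjusted p = 0.054), without replicate 1 of 3D (0.054) or without replicate 2 of 3D (0.097). Exons of MRNIP cover 20.7% of the exonic bases of SQSTM1 on the opposite strand. MRNIP had 307 to 848 counts per library, far fewer than the 7657 to 19078 counts of SQSTM1. It was called lower in HT29 (log2 fold change -0.31, adjusted p = 0.048). In the other lines its values lay between -0.24 and -0.10 (adjusted p between 0.15 and 0.63). MGAT4B, also on the opposite strand, covers 1.37% of the exonic bases of SQSTM1 and held 3662 to 14003 counts per library.

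OPTN (ENSG00000123240, chr10:13099449-13138308) encodes optineurin, a ubiquitin-binding receptor that acts downstream of PINK1. Its level differed more between lines than that of any other member above the floor in every line. In HCT116 the 2D libraries held 10.03, 10.7 and 11.1 CPM and the 3D libraries 64.4, 56.1 and 37.7 CPM. In LS513 the values were 36.4, 32.3 and 36.1 CPM in 2D and 97.9, 104 and 71.9 CPM in 3D. The groups did not overlap in either line. HT29 went from 12.5, 9.02 and 12.2 CPM to 31.6, 25.5 and 27.1 CPM. LS174T held 2.33, 2.45 and 3.29 CPM in 2D and 2.85, 3.14 and 3.13 CPM in 3D, and its groups overlapped.

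The log2 fold change of OPTN was 2.31 (SE 0.17, adjusted p = 1.9e-09) in HCT116, 1.39 (SE 0.17, adjusted p = 1.9e-06) in LS513, 1.32 (SE 0.17, adjusted p = 3.6e-06) in HT29 and 0.18 (SE 0.21, adjusted p = 0.58) in LS174T. The interaction was called (adjusted p = 4.3e-05), and 5 of the 6 pairwise differences passed the test, HT29 against LS513 being the exception (adjusted p = 0.98). HCT116 exceeded LS174T by 2.14 on the log2 scale (SE 0.27, adjusted p = 1.7e-05). In 2D LS513 was 13.0-fold above LS174T, and in 3D 30.02-fold. HT29 and HCT116 did not differ in 2D (adjusted p = 0.71), while in 3D HCT116 was 1.88-fold above HT29 (adjusted p = 3.5e-05).

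**Figure D3:**
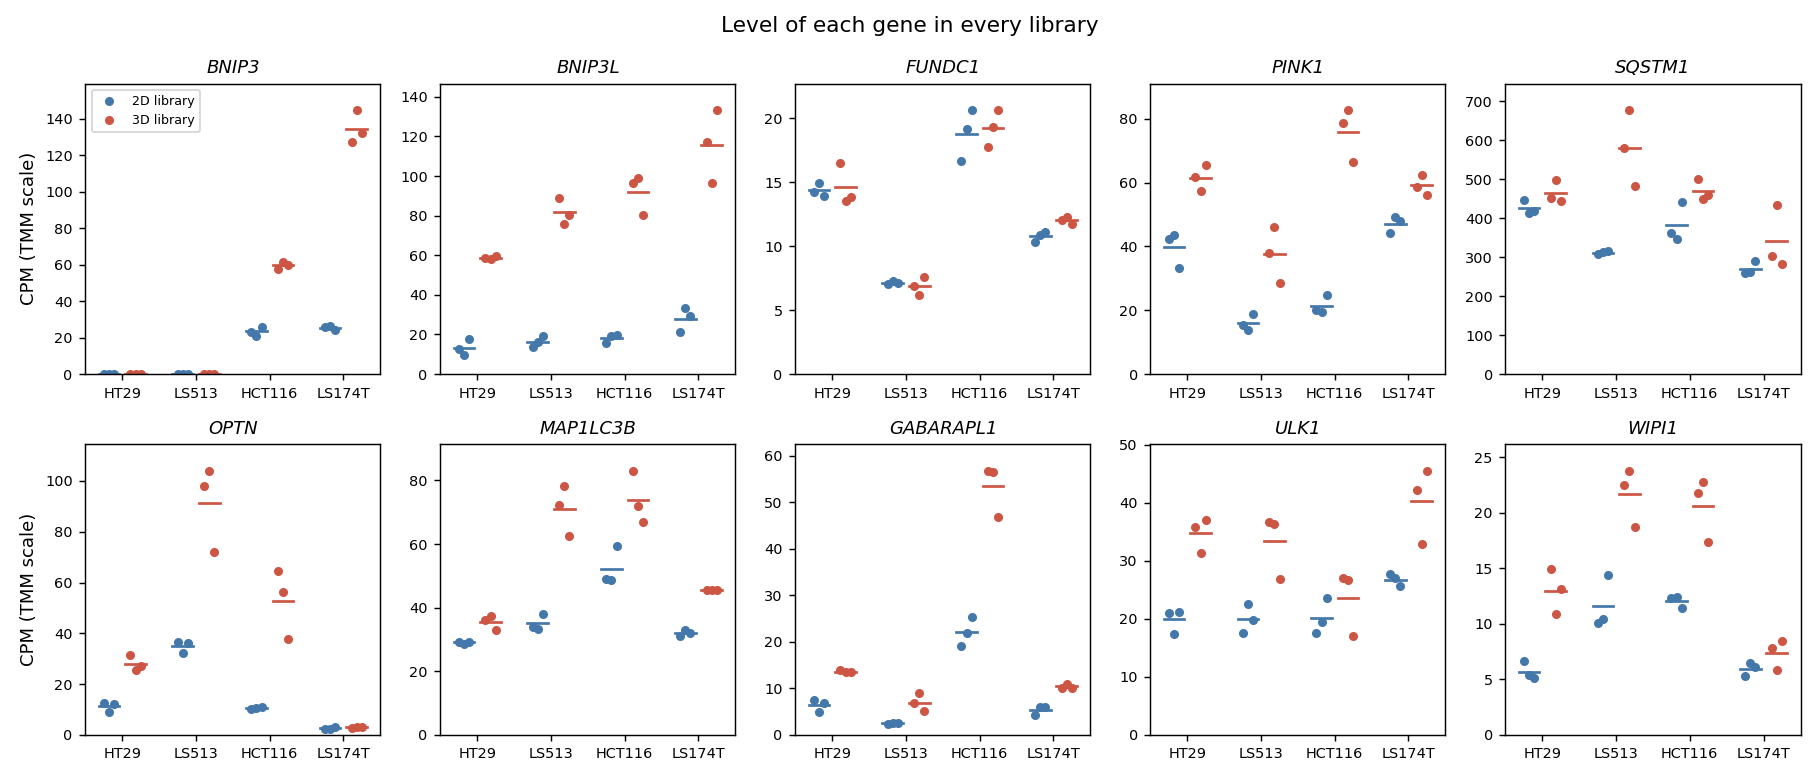
Level of each of the 10 genes in every library (CPM on the TMM scale, linear axis from 0), by cell line, with 2D libraries in blue and 3D libraries in red. Each point is a library and each bar the mean of 3. BNIP3L lies at 9.70 to 33.5 CPM in 2D and 58.0 to 133.3 CPM in 3D, FUNDC1 keeps the same order of lines in both growth conditions, and OPTN is at most 3.29 CPM in LS174T.

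MAP1LC3B (ENSG00000140941, chr16:87383995-87404779) encodes LC3B, the ATG8 protein most often used to mark autophagosomes. In LS513 it stood at 33.8, 33.3 and 38.1 CPM in 2D and at 72.1, 78.2 and 62.7 CPM in 3D. In HT29 the values were 29.2, 28.7 and 29.3 CPM in 2D and 36.3, 37.3 and 33.0 CPM in 3D. The rise in HT29 was small but its libraries did not overlap. HCT116 had 52.3 ± 6.21 CPM in 2D and 74.0 ± 8.20 CPM in 3D, and LS174T 32.0 ± 0.859 and 45.6 ± 0.105 CPM, again without overlap.

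The log2 fold change of MAP1LC3B was 1.02 (SE 0.10, adjusted p = 1.5e-07) in LS513, 0.51 (adjusted p = 0.0010) in LS174T, 0.50 (adjusted p = 0.00061) in HCT116 and 0.29 (adjusted p = 0.026) in HT29. The effects differed between lines (adjusted p = 0.0042). LS513 exceeded HT29 by 0.73 (adjusted p = 0.0011), HCT116 by 0.52 (adjusted p = 0.035) and LS174T by 0.51 (adjusted p = 0.046), and the other pairs were not called. HCT116 had the highest level in both growth conditions. LS513, next in the order, was lower than HCT116 in 2D (adjusted p = 2.1e-05) and was not called different from it in 3D (adjusted p = 0.61).

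GABARAPL1 (ENSG00000139112, chr12:10212458-10223130) belongs to the GABARAP branch of the ATG8 family, whose members act late in autophagosome maturation. It rose in all 4 lines. HCT116 held 19.1, 21.8 and 25.3 CPM in 2D and 56.7, 56.5 and 46.9 CPM in 3D. LS513 held 2.29, 2.48 and 2.57 CPM in 2D and 6.76, 8.95 and 5.06 CPM in 3D. HCT116 was thus the line with the highest level and LS513 that with the lowest, 9.03-fold apart in 2D and 7.71-fold in 3D. HT29 had 6.44 ± 1.32 CPM in 2D and 13.6 ± 0.217 CPM in 3D, and LS174T 5.44 ± 0.931 and 10.4 ± 0.529 CPM.

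The log2 fold change of GABARAPL1 was 1.08 (SE 0.17, adjusted p = 4.3e-05) in HT29, 1.5 (SE 0.19, adjusted p = 4e-06) in LS513, 1.27 (SE 0.16, adjusted p = 4.4e-06) in HCT116 and 0.93 (SE 0.17, adjusted p = 0.00063) in LS174T. The difference between lines in this effect was not called (adjusted p = 0.36), and the widest pairwise difference was 0.57 (SE 0.26) between LS513 and LS174T. The near-identical copies of these ATG8 genes held few counts, at most 10 per library for MAP1LC3B2 and at most 2 for GABARAPL3. Because reads aligned more than once had been removed, reads shared with these copies are missing from both sides.

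ULK1 (ENSG00000177169, chr12:131894651-131923167) encodes the kinase that starts autophagosome formation in response to nutrient and energy signals. It rose in HT29, LS513 and LS174T. HT29 had 19.9 ± 2.10 CPM in 2D and 34.8 ± 2.99 CPM in 3D (log2 fold change 0.81, adjusted p = 0.00053). LS513 had 19.95 ± 2.47 and 33.4 ± 5.56 CPM (0.74, adjusted p = 0.0020), and LS174T 26.8 ± 1.05 and 40.3 ± 6.58 CPM (0.59, adjusted p = 0.013). In LS174T the call was lost without replicate 3 of 2D (0.56, adjusted p = 0.054). In HCT116 the libraries held 17.6, 19.5 and 23.6 CPM in 2D and 27.1, 26.7 and 17.0 CPM in 3D, and the groups overlapped (0.22, adjusted p = 0.34). The growth effects were not called different between the lines (adjusted p = 0.24). ULK1 had the narrowest range of levels between lines in 2D, 1.35-fold from HT29 to LS174T.

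WIPI1 (ENSG00000070540, chr17:68420948-68457513, minus strand) encodes a protein that binds PI3P, the lipid made by the autophagy PI3 kinase, on the forming membrane. It rose in HT29, LS513 and HCT116. HT29 had 5.71 ± 0.806 CPM in 2D and 13.0 ± 2.02 CPM in 3D (log2 fold change 1.18, adjusted p = 1.2e-05). LS513 had 11.7 ± 2.42 and 21.7 ± 2.63 CPM (0.90, adjusted p = 0.00029), and HCT116 12.1 ± 0.542 and 20.7 ± 2.91 CPM (0.78, adjusted p = 0.00094). In LS174T the libraries held 5.32, 6.51 and 6.10 CPM in 2D and 7.85, 5.87 and 8.48 CPM in 3D, and these groups overlapped (0.31, adjusted p = 0.20).

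The interaction for WIPI1 had an adjusted p of 0.063, and of the pairwise differences HT29 against LS174T was called (0.87, adjusted p = 0.029). The interaction passed the test under library totals alone (adjusted p = 0.044), with no filter (0.021) and in DESeq2 (0.023). It also passed without HT29 replicate 1 of 2D (0.043), HT29 replicate 3 of 3D (0.035), LS513 replicate 3 of 2D (0.031), LS513 replicate 3 of 3D (0.050 after rounding) or LS174T replicate 3 of 3D (0.041). Exons of ARSG cover 24.3% of the exonic bases of WIPI1 on the opposite strand. ARSG held 21 to 259 counts per library and rose in HCT116 (log2 fold change 0.74, adjusted p = 0.00088), where WIPI1 rose by 0.78. AC007780.1, also on the opposite strand, covers 3.73% of the exonic bases of WIPI1 and held 450 to 1928 counts per library. WIPI1 itself held 93 to 698. The part of shared reads in the WIPI1 values was not tested.

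The interaction was called for 5 of the 10 genes in all, namely BNIP3, PINK1, SQSTM1, OPTN and MAP1LC3B, against 17.1% of all tested genes. For BNIP3 that test (adjusted p = 0.0010) includes the 2 lines at the floor, so the contrast of HCT116 with LS174T given above is the value to read. In LS174T, PINK1, SQSTM1, OPTN and WIPI1 as well as FUNDC1 were not called, while BNIP3 had its larger rise there. Levels in 2D were called different between the 4 lines for each of the 9 genes other than BNIP3, as they were for 91.7% of all tested genes. BNIP3 entered the test through 2 of the lines only, so its difference between lines is a description. ULK1 had an adjusted p of 0.038 in that test and was not called when any 1 of 8 libraries in 2D was left out, namely HT29 replicate 2, LS513 replicates 1 and 3, HCT116 replicates 1 and 2, and LS174T replicates 1, 2 and 3 (adjusted p between 0.053 and 0.14).

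Per kilobase of exon, SQSTM1 had the highest level of the 10 genes in all 8 groups, between 35.4 and 75.7 CPM per kb. BNIP3L was second in each of the 3D groups, with 13.6, 18.9, 21.3 and 26.8 CPM per kb in HT29, LS513, HCT116 and LS174T, whereas its 2D levels lay between 3.11 and 6.50 CPM per kb. BNIP3 had 4.399 CPM per kb in 2D and 11.2 in 3D in HCT116, where BNIP3L had 4.26 and 21.3. In LS174T BNIP3 had 4.80 CPM per kb in 2D and 25.3 in 3D, where BNIP3L had 6.50 and 26.8. These levels rest on the union of annotated exons, which need not be the exons used in these cells.

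Other genes of the same pathways were counted from lists chosen by function. Of all tested genes, 21.1%, 13.7%, 16.8% and 13.1% rose in HT29, LS513, HCT116 and LS174T, and 3.14% rose in all 4 lines. Among 13 other selective autophagy receptors, 8 rose in HT29, 4 in LS174T and 7 in both LS513 and HCT116, and none was called lower. The count for HT29 includes RETREG1, a receptor of the endoplasmic reticulum, which held 0 counts in each 2D library and 2 in each 3D library, both under the floor. CALCOCO1, a receptor for the endoplasmic reticulum and Golgi, rose in all 4 lines, with log2 fold changes of 0.98, 1.07, 1.5 and 0.82 in HT29, LS513, HCT116 and LS174T. CALCOCO2 (NDP52), a ubiquitin-binding receptor of mitophagy, rose in all 4 lines by 0.26 to 0.49, and STBD1, which binds glycogen, by 0.78 to 1.11. Of the 5 other ATG8 genes 3 were tested, and 3, 1, 2 and 2 of them rose in HT29, LS513, HCT116 and LS174T. GABARAP rose in all 4, by 0.39 to 0.62, and MAP1LC3A had the largest increase in HT29 (1.77, adjusted p = 5.5e-05).

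Among 21 other mitophagy genes the directions were mixed. In HT29, 5 rose and 7 fell, in LS513 2 rose and none fell, in HCT116 7 rose and 4 fell, and in LS174T 6 rose and 2 fell. The shares of all tested genes that rose and fell were 21.1% and 19.6% in HT29 and 13.7% and 9.9% in LS513. They were 16.8% and 12.3% in HCT116 and 13.1% and 9.15% in LS174T. FKBP8, a receptor of the outer mitochondrial membrane, rose in all 4 lines by 0.61 to 0.77, and NIPSNAP1 by 0.45 to 1.18. TOMM7, a subunit of the outer membrane import complex that stabilises PINK1, rose in HT29 (log2 fold change 1.13, adjusted p = 9.5e-06), HCT116 (0.51, adjusted p = 0.018) and LS174T (0.79, adjusted p = 0.0012). The largest decrease within a line was that of CSNK2A1 in HT29 (-0.49), which also fell in HCT116 (-0.34), that of USP15 in HCT116 (-0.50), which also fell in HT29 (-0.42), and that of MFN1 in LS174T (-0.36), which also fell in HT29 (-0.45).

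The core machinery was mixed in direction, and the shares of all tested genes that rose and fell, given above, are the background for these counts. Among 10 genes of ATG8 and ATG12 conjugation, 1, 0, 1 and 1 rose and 3, 1, 1 and 0 fell in HT29, LS513, HCT116 and LS174T. ATG16L1 fell by 0.62 on the log2 scale in HT29, and ATG4C by 0.43 in HT29, by 0.53 in LS513 and by 0.60 in HCT116. ATG10 (0.97) rose in HT29, ATG12 (0.25) in HCT116 and ATG4B (0.34) in LS174T. Among 10 genes of initiation and membrane supply, 2, 4, 4 and 0 rose and 1, 1, 0 and 1 fell. The largest changes per line in this list were ATG9B (1.37) and RB1CC1 (-0.59) in HT29, TMEM41B (0.37) and ULK2 (-0.68) in LS513, ATG9B (1.98) in HCT116 and ATG2B (-0.63) in LS174T, and ULK2 rose in HCT116 (0.54). The ATG9B values in HCT116 were low and uneven, 0.347 ± 0.110 CPM in 2D and 1.37 ± 1.30 CPM in 3D.

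Among 11 genes of the PI3 kinase complex and other PI3P effectors, 5, 4, 5 and 2 rose and 2, 1, 1 and 2 fell. PIK3R4, the regulatory subunit of the PI3 kinase VPS34, fell in all 4 lines, as did 2.46% of all tested genes, by 0.52, 0.30, 0.64 and 0.50 on the log2 scale. The WIPI1 relatives WDR45 (0.89 in HT29 and 1.06 in HCT116) and WDR45B (0.68 in LS174T) and the PI3P-binding ZFYVE1 (1.17 in LS513) had the largest increases within a line.

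**Figure D4:**
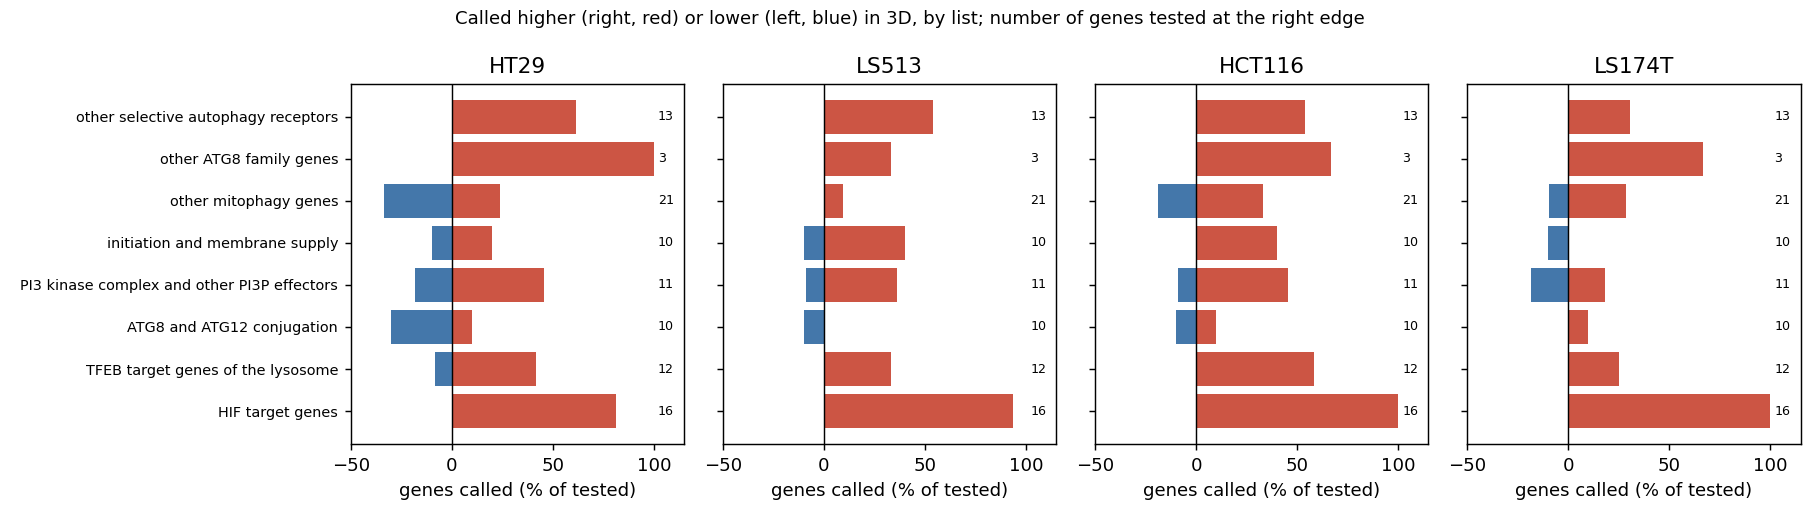
Share of the tested genes of each list called higher (right, red) or lower (left, blue) in 3D at an adjusted p under 0.05, as a percentage, for the 4 lines, with the number of genes tested at the right edge. The 16 HIF target genes have the longest bars to the right except for the 3 other ATG8 genes in HT29, and the conjugation list has bars of at most 3 genes on either side.

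Further groups moved beside the members, and the shares of all tested genes given above are their background too. Of 16 other HIF target genes, 13, 15, 16 and 16 rose in HT29, LS513, HCT116 and LS174T, none fell, and the medians were 1.14, 1.48, 1.51 and 1.60. NDRG1 had 14.6 ± 1.20 CPM in 2D and 295.1 ± 97.0 CPM in 3D in HT29, and 34.0 ± 3.27 and 637 ± 66.9 CPM in LS174T. CA9 had 3.12 ± 0.675 and 49.9 ± 20.3 CPM in LS513, and ANKRD37 had 1.09 ± 0.135 and 24.3 ± 2.19 CPM in HCT116. Each of these genes rose in all 4 lines. Of 12 lysosomal targets of TFEB, the factor that drives lysosome and autophagy genes, 5, 4, 7 and 3 rose and 1, 0, 0 and 0 fell. NEU1, a lysosomal sialidase, led that list in every line (0.78, 1.29, 1.36 and 0.55), and LAMP1 fell by 0.40 in HT29.

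Of 12 genes of cell proliferation, 10, 8, 9 and 4 fell in the same order of lines, and none rose. MKI67 fell by 1.21 in HT29 and by 0.92 in LS174T, and TOP2A fell in all 4 lines, by 1.08, 0.75, 0.99 and 0.58. Of 12 epithelial markers, 8, 9, 6 and 6 rose and 1, 0, 0 and 0 fell. KRT19, KRT20, CLDN3, CLDN7 and LGALS4 rose in all 4 lines. In HCT116 the levels in 2D and 3D were low for KRT20 (0.646 and 2.50 CPM) and LGALS4 (0.120 and 0.363 CPM). The largest increases per line were those of KRT20, a marker of differentiated colonocytes, with 460.1 ± 58.4 CPM in 2D and 1334 ± 70.0 CPM in 3D in LS513 and 0.817 ± 0.208 and 12.5 ± 2.77 CPM in LS174T, as well as CDX1 (2.82) in HT29 and CLDN3 (2.14) in HCT116, while KRT18 fell by 0.41 in HT29. Of the markers of other cells, 5 were tested, 2, 1, 1 and 1 rose and none fell. CD68 rose in every line, by 1.17, 2.01, 1.92 and 0.92, and it encodes a lysosomal membrane protein. The other marker called was CD14, a leukocyte surface receptor, in HT29 (6.11 and 12.7 CPM in 2D and 3D, log2 fold change 1.04, adjusted p = 0.0072). The part of these groups in the changes of the 10 genes was not tested.

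The genes whose pattern over the 24 libraries was most like that of a member were ranked by Pearson's r of log2(CPM + 1). The libraries share lines and growth conditions, so r describes the pattern only. For BNIP3 they were SUGCT (0.988), ACTA2 (0.987) and STC2 (0.986). For BNIP3L they were ALDOC (0.954), NDRG1 (0.954) and MIR210HG (0.943). For FUNDC1 they included KRT10-AS1 (0.980) and MRFAP1 (0.970). ALDOC encodes a glycolytic aldolase, NDRG1 a stress-responsive protein and MIR210HG the host transcript of a hypoxia-responsive microRNA. ALDOC and NDRG1 are also in the list of HIF target genes above.

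The nearest patterns to PINK1 were those of TCP11L2 (0.916), USE1 (0.900) and PHPT1 (0.880), and to SQSTM1 those of DNTTIP1 (0.910), OSGIN1 (0.899) and TSG101 (0.896). OPTN was closest to CATSPER1 (0.963), SLC2A12 (0.958) and HID1 (0.956). MAP1LC3B was closest to SCARF2 (0.961), ENSG00000284526 (0.944) and ACHE (0.940), and GABARAPL1 to JAK3 (0.962), KRBOX4 (0.952) and DLG4 (0.949). ULK1 was closest to KLHDC2 (0.880), ERG28 (0.880) and SREBF1 (0.868), and WIPI1 to SYT7 (0.947), PAM (0.922) and CD68 (0.917).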

How the data were processed

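The 24 libraries were made with a stranded poly(A) kit and read as single ends. The authors trimmed the reads (Trim Galore 0.4.1 in the submitters' processing notes), aligned them with STAR, removed reads aligned more than once and counted reads on exons with HTSeq 0.5.3. The deposited values are raw counts per Ensembl gene for each technical replicate, 191 tables in all, with no normalization. The paper's methods name an annotation of GRCh38 and the processing notes hg19, so gene identifiers were used and positions, exons and overlaps were taken from GENCODE 29 on GRCh38.

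Technical replicates were summed per library. One library of HT29 in 3D had 7 and the others 8. Genes were filtered with filterByExpr (19387 kept), scaled by TMM and fitted in R 4.3.3 with edgeR 4.0.16 (robust quasi-likelihood, 8 group coefficients, two-sided tests). Benjamini-Hochberg adjustment of the p-values ran over all tested genes, and SE was taken from the fold change and the F statistic. Pairwise differences between lines were adjusted within each contrast. The 10 members and the 11 companion lists were chosen with earlier results of these data known. From each list the called gene with the largest increase and decrease per line is named, and genes called in all 4 lines were named after their values were seen. For each member the 3 most correlated genes are named. Some genes that these rules name are not reported here. The fit was tested on data simulated with changes in HT29 3D. At a log2 change of 0.5 it called 18 of 74 changed genes in the right direction. At 1 and 2 these numbers were 54 of 64 and 61 of 62. A change of 0.5 was thus mostly missed. Alternatives were the size factors of DESeq2 1.42.0, library totals alone, no filter, the DESeq2 test, the 6 libraries of a line alone, a replicate block and leaving out each of the 24 libraries in turn. Library totals, floors and the counting intervals are given with the results.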

Additional observations from a re-analysis of the deposited data

Results flagged for a closer look

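For 5 members, 3D against 2D had growth effects that differed between lines by a test of the difference itself. Of all tested genes, 17.1% were called by the interaction test and 4.75% by the contrast of HCT116 with LS174T, which was used for BNIP3. For BNIP3 the rise in LS174T exceeded that in HCT116 (adjusted p = 0.00053). For PINK1 (adjusted p = 4.9e-05) and OPTN (adjusted p = 4.3e-05) the largest effect was in HCT116 and the smallest in LS174T. In the pairwise tests of PINK1, HCT116 was not called different from LS513 (adjusted p = 0.12), nor HT29 from LS174T (0.46). The effect on MAP1LC3B (adjusted p = 0.0042) and on SQSTM1 (adjusted p = 0.020) was largest in LS513 and smallest in HT29. In their pairwise tests, HT29 was not called different from HCT116 (adjusted p = 0.47 and 0.71) or LS174T (0.43 and 0.62). For SQSTM1, LS513 was called different from HT29 alone. Over the libraries left out in turn the adjusted p of the interaction ranged from 1.2e-05 to 0.00037 for PINK1, from 4.7e-06 to 0.00023 for OPTN, from 0.0019 to 0.027 for MAP1LC3B and from 0.00081 to 0.097 for SQSTM1.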

How the results depend on the processing

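The numbers of members called within a line stayed within 1.5 times their value under every alternative, with 6 to 7 in HT29, 8 in LS513, 7 to 8 in HCT116 and 4 to 6 in LS174T, and the 8 called for the mean effect remained 8 with each library left out. The labels give equal replicate numbers in 2D and 3D but do not say that they mark shared cultures, and the deviations of same-numbered libraries correlated between -0.209 and 0.216, so they were not taken as pairs. With a replicate block the interaction was called for 3 members in place of 5, since it was lost for SQSTM1 (adjusted p = 0.11) and MAP1LC3B (adjusted p = 0.11), and MAP1LC3B in HT29 was not called (0.33, adjusted p = 0.13). Under library totals alone ULK1 in LS174T was not called (0.47, adjusted p = 0.051), and FUNDC1 turned to -0.07 in HCT116 and -0.05 in the mean of the lines. With libraries left out in turn the FUNDC1 values, never called, ranged from -0.04 to 0.13 in HT29, from -0.13 to 0.01 in LS513 and from -0.05 to 0.08 in HCT116, so their sign is not settled. ULK1 in LS174T lost its call without replicate 3 of 2D (0.56), and SQSTM1 gained one without HCT116 replicate 3 of 2D (0.38) or LS174T replicate 3 of 3D (0.45), while without LS174T replicate 2 of 3D it was 0.13. SQSTM1 in LS174T passed the test with all genes of at least 1 count (0.33, adjusted p = 0.030). The difference of ULK1 between lines in 2D was lost with the size factors of DESeq2 (adjusted p = 0.052) and with any 1 of 8 libraries left out. The WIPI1 interaction was gained under library totals alone, no filter and the DESeq2 test. Of 717 alternative values of single genes, 705 kept their direction and their side of the threshold, 3 lost the call, 3 gained it and 6 changed sign. Pairwise differences between lines were computed with all libraries only. Counts under the floor of 3 limit BNIP3 in HT29 and LS513.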

Other observations

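BNIP3 was not the only gene with a marked split between the lines. Counting BNIP3 itself, 27 genes had at most 3 counts in every library of HT29 and LS513 and at least 100 in every library of HCT116 and LS174T, limits that were set after the BNIP3 counts had been seen. Among them GTSF1 held 2053 to 5784 counts in HCT116 and LS174T and 0 elsewhere, and STC2, a secreted glycoprotein that was also among the 3 genes most like BNIP3, held 1899 to 4339 counts and at most 3 elsewhere. The reverse split was found for 4 genes.

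The coding neighbours of BNIP3 on chromosome 10, looked up after its counts had been seen, did not share its split as a group. GLRX3, a glutaredoxin, held 2485 to 4690 counts in HT29 and 2530 to 3437 in LS513, and PPP2R2D, a phosphatase subunit, held 689 to 1068 and 877 to 1027. STK32C held 313 to 528 counts in HT29, 114 to 153 in LS513, 702 to 792 in HCT116 and 935 to 1301 in LS174T. DPYSL4 was at 0 in HT29 and LS513 and held 65 to 136 counts in HCT116 and 4 to 11 in LS174T. TCERG1L held at most 4 counts in any library, and JAKMIP3 reached 78 to 217 counts in LS174T and at most 6 in the other lines.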
